A study of Homo sapiens with 2 samples.

Results

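The sterol arm of cholesterol synthesis was examined in HepG2 cells, a human hepatocellular carcinoma line that keeps many functions of hepatocytes, after treatment with hawk tea extract (HTE). The arm was taken as 9 genes, SQLE, LSS, CYP51A1, MSMO1, NSDHL, HSD17B7, EBP, SC5D and DHCR7. Their probes were found by matching the RefSeq transcript named for each array probe to the gene, which gave 12 probes and 30 spots. The rule itself uses no measured value, but it was set with earlier results of these data known, and where a gene has several probes the brightest stands for it. These stand among 23752 genes and 29680 probes that were measured, that is, well above background on at least 1 array. The treated cells received HTE for 24 h and the control cells received the solvent dimethyl sulfoxide (DMSO, 1‰). The dose is not settled. The treatment protocol given with the samples states 200 μg mL−1, whereas the name of the HTE array carries the number 300. The text of the paper also ties a dose of 300 μg mL−1 to the array experiment. Each condition was measured on 1 array, so there are no replicates, no test between conditions was run, and array and treatment cannot be told apart.

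Cells make cholesterol in a mevalonate arm, which ends in squalene, and a sterol arm, which closes squalene into a ring system and trims it. SQLE and LSS oxidize and cyclize squalene to lanosterol, CYP51A1 removes the 14α-methyl group, MSMO1, NSDHL and HSD17B7 together remove the methyl groups at C4, and EBP, SC5D and DHCR7 set the double bonds of the final ring system. Genes of both arms are textbook targets of SREBP2, a transcription factor of the endoplasmic reticulum that is released when cell sterols fall and that acts at promoters together with NF-Y and Sp1.

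To show the regulatory sequence of these genes, the promoters of 8 of the 9 members were read from a RefSeq promoter table (GRCh38.p14), in windows of 250 bases before to 50 bases after the start. SQLE was not matched. The 250 bases before the start are printed 5′ to 3′ on the strand of the gene for MSMO1, which had the largest rise, for LSS, which had probes that disagreed, for NSDHL, which had the most CCAAT motifs, and for EBP, which had the smallest ratio. Capitals mark CCAAT, the letters of the NF-Y box, or its reverse complement ATTGG. The windows are chr4:165327419-165327668 (plus strand) for MSMO1, chr21:46228775-46229024 (minus strand) for LSS, chrX:152830813-152831062 (plus strand) for NSDHL and chrX:48521558-48521807 (plus strand) for EBP.
MSMO1: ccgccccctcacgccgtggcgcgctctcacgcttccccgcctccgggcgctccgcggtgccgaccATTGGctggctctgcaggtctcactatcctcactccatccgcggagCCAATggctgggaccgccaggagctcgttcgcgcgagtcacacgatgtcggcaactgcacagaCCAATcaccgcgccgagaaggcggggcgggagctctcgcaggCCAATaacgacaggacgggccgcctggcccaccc
LSS: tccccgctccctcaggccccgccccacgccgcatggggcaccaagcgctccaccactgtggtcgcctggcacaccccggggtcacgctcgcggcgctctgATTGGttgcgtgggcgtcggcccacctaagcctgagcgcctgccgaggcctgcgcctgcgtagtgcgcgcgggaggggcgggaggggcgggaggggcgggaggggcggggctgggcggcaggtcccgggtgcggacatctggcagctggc
NSDHL: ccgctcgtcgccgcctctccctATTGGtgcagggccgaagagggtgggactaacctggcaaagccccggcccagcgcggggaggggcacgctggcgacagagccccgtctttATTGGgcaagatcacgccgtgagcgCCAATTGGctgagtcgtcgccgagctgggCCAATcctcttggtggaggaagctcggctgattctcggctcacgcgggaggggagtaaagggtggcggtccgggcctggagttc
EBP: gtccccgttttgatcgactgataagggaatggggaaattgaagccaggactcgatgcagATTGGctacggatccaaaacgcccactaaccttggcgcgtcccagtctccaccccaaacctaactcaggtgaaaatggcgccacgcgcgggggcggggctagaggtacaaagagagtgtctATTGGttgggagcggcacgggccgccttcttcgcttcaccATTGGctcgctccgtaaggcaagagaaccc

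CCAAT, searched on both strands, was found in the full window of 7 of the 8 members, and 39.7% of the 27305 genes in the table held it. The exception was CYP51A1. At least 2 copies were found in 5 members (MSMO1, NSDHL, HSD17B7, EBP and DHCR7), as in 12.9% of all genes. Where a gene had more than 1 window, as DHCR7 and SC5D did, the highest count of each motif was taken. Another window of DHCR7 held 0 copies of CCAAT and 0 of the GC box described below. MSMO1 held 4 copies, beginning 185, 139, 76 and 34 bases before the start, and EBP held 3, beginning 191, 70 and 30 bases before it. NSDHL held 5, of which a pair overlaps in the run CCAATTGG, and LSS held 1, beginning 150 bases before the start. GGGCGG, the letters of the GC box bound by Sp1, was found in 7 of 8 members (all but NSDHL), as in 48.3% of genes. Neither TCACNCCAC, a strict form of the sterol regulatory element, nor the E-box form TCACGTGA was found in the window of any of the 8 members, and these letters were found in 1.39% and 1.18% of genes. These are matches of letters and not measured binding sites. Of the members under 2-fold in the comparison described next, CYP51A1 held 0 copies of CCAAT, EBP 3 and NSDHL 5. Of those past it, SC5D and LSS held 1 each, HSD17B7 and DHCR7 held 2 each and MSMO1 held 4.

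After HTE, 5 of the 9 members showed a rise of 2-fold or more relative to DMSO, where 5.25% of all measured genes were (1248 of 23752). They were MSMO1 at 3.17-fold, SC5D at 2.45-fold, LSS at 2.30-fold, HSD17B7 at 2.25-fold and DHCR7 at 2.0-fold. The other 4 were CYP51A1 at 1.65-fold, NSDHL at 1.49-fold, SQLE at 1.21-fold and EBP at 1.11-fold. All 9 had a ratio above 1, where 45.7% of measured genes did, and no member was lower. That share counts as not above 1 the 1272 genes dim on 1 array whose ratio was set to no change. Among genes well above background on both arrays, as the members are, 10388 of 21002 had a ratio above 1. The median log2 ratio of the members was 1.00, and that of all measured genes was 0.00.

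These ratios are differences of the log2 processed signal, HTE minus DMSO, after subtraction of the 75th percentile, which lay at 4020.0 on the DMSO array and 3570.3 on the HTE array. The processed signal is the intensity of a spot after the scanner software removed the background. The signals of single spots are given below without this scaling, so a fold is larger than the quotient of the printed signals. The error available is that of the arrays and not of the cultures. The software's own error came to 0.20 on the log2 scale for the ratio of a member spot (0.21 for SC5D). It is the software's estimate, nearly the same for dim and bright members, and not a spread measured on these arrays. Replicate spots varied less, with a median SD of 0.05 over 688 probes. Different probes of 1 gene varied more, with a median SD of 0.17 over 3759 genes. All 12 member probes were well above background in every spot on both arrays, and no member spot was an outlier.

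The first enzyme, squalene epoxidase (SQLE), the oxygenase that is a main point of control of the arm, was among the members with the smallest ratios. Its spot had a processed signal of 20853 on the DMSO array and 22385 on the HTE array, and its log2 ratio was 0.27. Of all measured genes, 25.1% had a higher ratio.

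Lanosterol synthase (LSS), the cyclase that forms the first sterol, was measured by 2 probes. The brighter one, A_24_P110799, which stands for the gene here, went from 15456 to 31639, a log2 ratio of 1.20. The other, A_23_P211252, which is named for a different transcript of LSS, went from 925 to 3823, a log2 ratio of 2.22 or 4.65-fold. Both were past 2-fold, and they differed by 1.01, which is more than their combined software error of 0.29. With the mean of both probes LSS would be at 1.71 and the highest of the members.

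Lanosterol 14α-demethylase (CYP51A1), a cytochrome P450, went from 29982 to 44013, a log2 ratio of 0.73. It lay under 2-fold, and 9.26% of measured genes had a higher ratio.

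The enzymes of C4 demethylation had ratios on both sides of 2-fold. MSMO1, the methylsterol monooxygenase that starts each round, was spotted 10 times on each array. Its signals ran from 2153 to 2393 with a median of 2348 on the DMSO array and from 6312 to 6889.6 with a median of 6454 on the HTE array. The spots of the arrays did not overlap. These are unscaled replicate spots of 1 array each, and how many other probes separate in this way was not counted. The log2 ratio of MSMO1 was 1.66 ± 0.05 (SD, n = 10 spots of 1 array pair), and 1.56% of measured genes had a higher one. NSDHL, the decarboxylating dehydrogenase that acts next, went from 15279 to 20175, a log2 ratio of 0.57. The step from MSMO1 to NSDHL was a fall of 1.09 in log2 ratio against a combined software error of 0.29.

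HSD17B7, the 3-ketosteroid reductase that closes the round, was measured by 3 probes, all past 2-fold. The probe that stands for the gene, A_33_P3225487, went from 4989 to 9966, a log2 ratio of 1.17. A_33_P3276369 went from 3819.8 to 8593, a log2 ratio of 1.34. A_23_P11859 was spotted 10 times and ran from 3420.25 to 3751 (median 3621) on the DMSO array and from 6632 to 6997 (median 6806) on the HTE array. Its log2 ratio was 1.09 ± 0.035 (SD, n = 10 spots of 1 array pair). The probes farthest apart differed by 0.25, less than their combined software error of 0.29. Probes of its pseudogene copy HSD17B7P2 were not matched, and whether the probes of HSD17B7 also bind transcripts of that copy was not tested.

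Over all 12 probes, 8 were past 2-fold in the same direction, where 5.2% of the 29680 measured probes were. The plot of signals shows every spot behind these values, and the plot of ratios sets them in the order of the pathway.

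**Figure D1:**
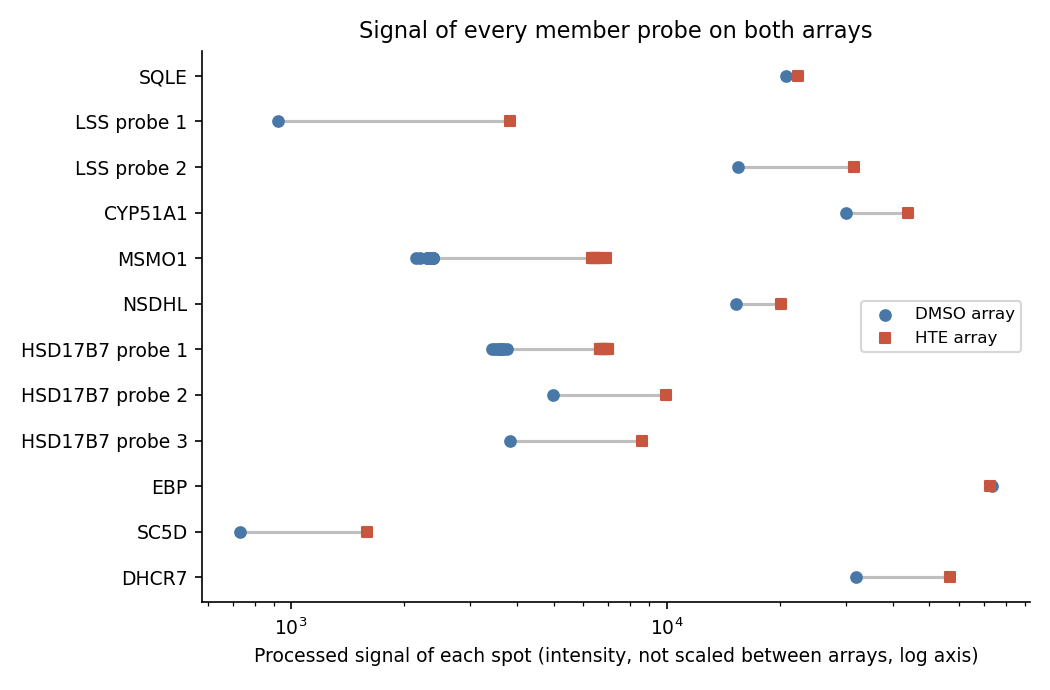
Processed signal (intensity, log axis, not scaled between arrays) of every spot of the 12 member probes on the DMSO array (circles) and the HTE array (squares), in pathway order. LSS probe 1 is A_23_P211252 and probe 2 is A_24_P110799, and HSD17B7 probes 1 to 3 are A_23_P11859, A_33_P3225487 and A_33_P3276369. The 10 spots of MSMO1 and of HSD17B7 probe 1 form separate clusters on the arrays, whereas the spots of EBP nearly coincide. The clusters are replicate spots of 1 array pair and not separate cultures.

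The isomerase EBP, which moves the double bond from C8 to C7, had the smallest ratio of the members. Its signal was 73576 on the DMSO array and 72454 on the HTE array, slightly lower before scaling and 0.15 higher on the log2 scale after it. This ratio is within the software error of 0.20. The spot was not flagged as saturated on either array.

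SC5D, the lathosterol oxidase that follows EBP, went from 731 to 1591, a log2 ratio of 1.29. The neighbouring steps of EBP and SC5D lay 1.14 apart, the widest step among the 8 consecutive pairs of the arm. DHCR7, the reductase that ends the route to cholesterol through 7-dehydrocholesterol, went from 32013 to 56992. Its log2 ratio of 1.00 lies on the 2-fold threshold and just inside it.

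Along the pathway 7 of the 8 consecutive pairs differed by more than their combined software error, and 6 differed by more than 2 times that error. This error does not cover differences between probes, and the probes of LSS alone were 1.01 apart, so the steps are differences between probes on 1 array pair and do not show that the enzymes moved by different amounts. SC5D and DHCR7 were the pair within it. The printed ratios went up and down in turn along the pathway. Ranked by size, the order was MSMO1, SC5D, LSS, HSD17B7, DHCR7, CYP51A1, NSDHL, SQLE and EBP. Only 2 of the 8 neighbours in this order were apart by more than the combined software error, MSMO1 from SC5D (0.37 against 0.29) and NSDHL from SQLE (0.30 against 0.29).

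**Figure D2:**
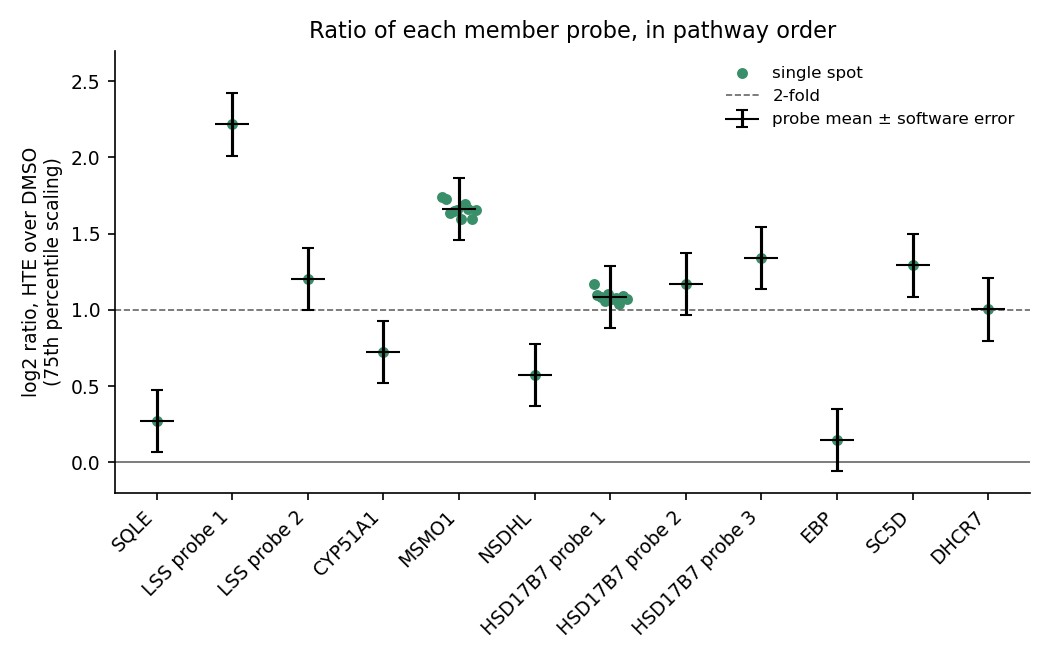
Log2 ratio of HTE over DMSO after 75th percentile scaling for each member probe in pathway order, with single spots as points and the probe mean with the software error (0.20 to 0.21) as black bars. The dashed line is 2-fold, with 8 of the 12 probes on or above it, and SQLE, CYP51A1, NSDHL and EBP below it.

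By kind of reaction the rises were spread, beside 5.25% of all measured genes that were at least 2-fold higher. Of the 4 oxygenases (SQLE, CYP51A1, MSMO1 and SC5D), 2 were at least 2-fold higher, with a median log2 ratio of 1.01. Of the 3 dehydrogenases and reductases (NSDHL, HSD17B7 and DHCR7), 2 were, with a median of 1.00. Of LSS and EBP, the cyclase and the isomerase, only LSS was. By chromosome, the 2 members on X, NSDHL and EBP, were both under 2-fold, and 5 of the 7 on autosomes were past it. Over the 546 measured genes on X the median log2 ratio was 0.02 and 4.21% were at least 2-fold higher, which is close to the share over all genes.

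Across all measured genes, 1248 were at least 2-fold higher and 720 at least 2-fold lower, so 63.4% of changed genes were higher. This split depends on the scaling and on dim probes. It was 42.2% higher without scaling, 0.9% with spike-in scaling and 50.4% when a dim probe kept its own value in place of a bound. A narrower background was chosen after the data had been seen, 14834 genes detected on both arrays that were at least as bright after DMSO as the dimmest member. Of these, 2.43% (360) were at least 2-fold higher.

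**Figure D3:**
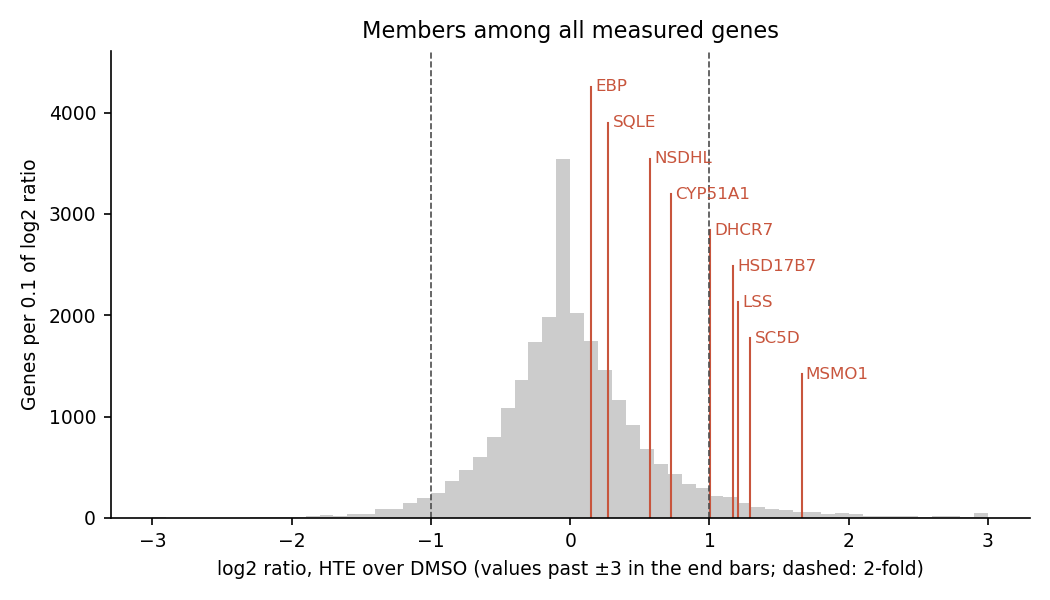
Number of measured genes per 0.1 of log2 ratio (grey bars, values past ±3 in the end bars), with the 9 members as red lines whose heights carry no value. The tall bar beside 0 includes the 1272 genes whose bound came out as no change, and 5 members stand on or past the dashed 2-fold line at the right while EBP and SQLE lie within the bulk.

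The members were set against the median of all genes under each scaling. The median ratio of all genes was 0.00 with the 75th percentile, −0.16 without scaling and −1.21 with scaling to the spike-in probes, and all 9 members lay above that median each time. Without a filter on dim probes the median was 0.21, and 8 of 9 lay above it, with EBP below. The number of members past 2-fold was 4 with median or quantile scaling, where DHCR7 fell below it and 4.52% and 4.82% of all genes were past it. It was 3 without scaling, with 3.72% of all genes, and 0 with the spike-in probes, with 0.598%. EBP turned to −0.022 without scaling. With the spike-in probes, 7 of 9 members were below 0 and MSMO1 (0.44) and SC5D (0.07) were above. EBP had the lowest ratio of the members under each of these scalings, and MSMO1 had the highest.

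**Figure D4:**
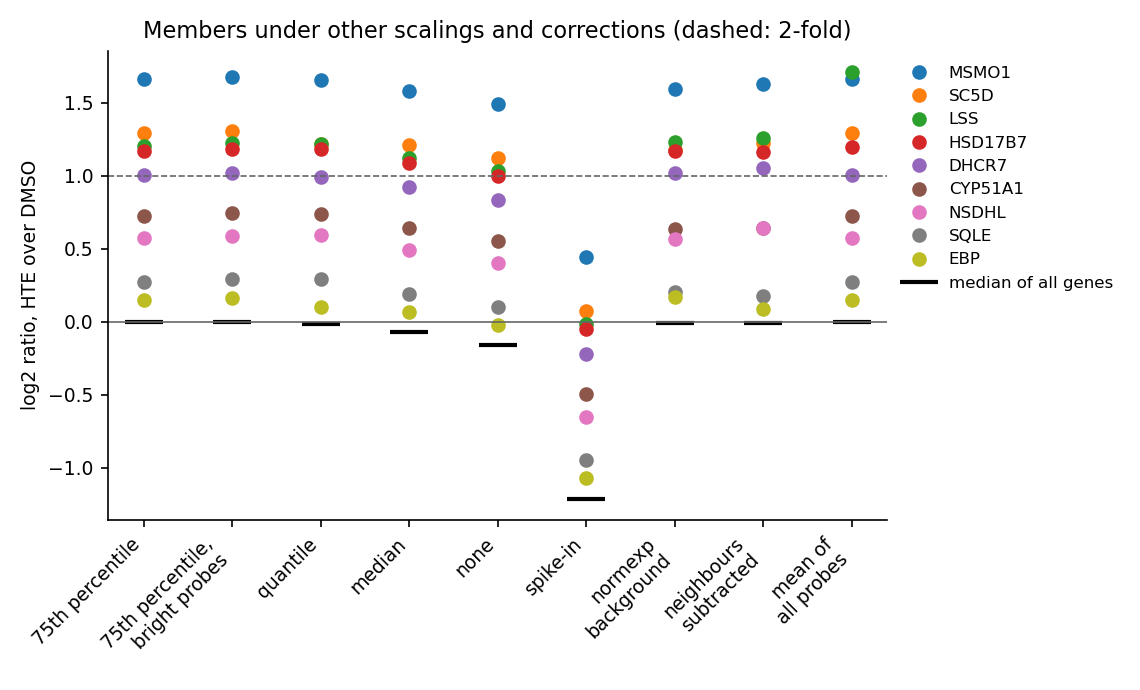
Log2 ratio of HTE over DMSO of the 9 members (coloured points) and the median of all genes (black bars) under 9 scalings, background corrections and ways of joining probes. The members shift together with the scaling and stay above the black bar in each column, and LSS passes MSMO1 (1.71 against 1.66) when the probes of a gene are averaged.

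A list of 6 further genes that the rule left out was taken as other enzymes of the branch, in a wide sense. It takes in FDFT1, which makes squalene, the scaffold ERG28 and FAXDC2, a relative of MSMO1. Of these 6, 5 had a ratio above 1 and 3 were at least 2-fold higher (45.7% and 5.25% over all measured genes). Their median log2 ratio was 0.96. ERG28, the scaffold that holds the C4 demethylation enzymes together, went from 12799 to 32370, a log2 ratio of 1.51 beside 1.66 for MSMO1. FAXDC2, a fatty acid hydroxylase domain protein related to MSMO1, went from 958 to 1882 (1.14). FDFT1, the squalene synthase that feeds SQLE, went from 25460.2 to 38872 (0.78).

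A pair of enzymes able to do the same reduction had ratios of opposite sign with the 75th percentile scaling. TM7SF2, one of the C14 sterol reductases, went from 1854 to 3619, a log2 ratio of 1.13, with its 8 usable spots between 1.08 and 1.20. LBR, the lamin B receptor, which has the same reductase activity, went from 31107 to 22516, a log2 ratio of −0.30. These ratios were 1.43 apart against a combined software error of 0.29. With the members, 14 of 15 genes of the branch in this wide sense had a ratio above 1 and 8 were at least 2-fold higher. Over all measured genes these shares were 45.7% and 5.25%.

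Beside the sterol arm, all 8 mevalonate enzymes had a ratio above 1 and 3 were at least 2-fold higher, with a median log2 ratio of 0.62. HMGCS1, the HMG-CoA synthase, was highest at 1.44 (8751 to 21121), and ACAT2, the thiolase of the first step, was lowest at 0.09. A list of 12 SREBP regulators and targets outside synthesis also takes in genes that act on the LDL receptor. Of these 12, 9 had a ratio above 1 and 3 were at least 2-fold higher, with a median of 0.71. Over all measured genes, 45.7% had a ratio above 1 and 5.25% were at least 2-fold higher. INSIG1, which retains SREBP in the endoplasmic reticulum, was highest at 2.20 (822 to 3362), and MYLIP, a ligase that degrades the LDL receptor, was lowest at −0.62.

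The proteins that pass electrons to the oxygenases or assist them were examined as well. Of 5 measured, 3 had a ratio above 1 and 1 was at least 2-fold higher, SEC14L2, which stimulates SQLE (232 to 465, 1.18). SEC14L2 has 2 probes. With the mean or median over all probes, or with normexp background correction, 0 genes of this list were at least 2-fold higher. The list median was 0.04, and CYB5B, a cytochrome b5, was lowest at −0.44. POR was not matched to a probe. Of the enzymes that use sterols, 4 of 7 were measured and 1 had a ratio above 1, with a median of −0.055, SOAT2 highest at 0.43 and SOAT1 lowest at −0.62, both of which esterify cholesterol. Of 13 reference genes, 8 had a ratio above 1 and none reached 2-fold, with a median of 0.09 and a range from −0.49 (TBP) to 0.43 (GAPDH). The ratios of SQLE and EBP lie within that range. The counts of these lists stand beside 45.7% of all measured genes with a ratio above 1 and 5.25% at least 2-fold higher. Differences between these lists were not tested.

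**Figure D5:**
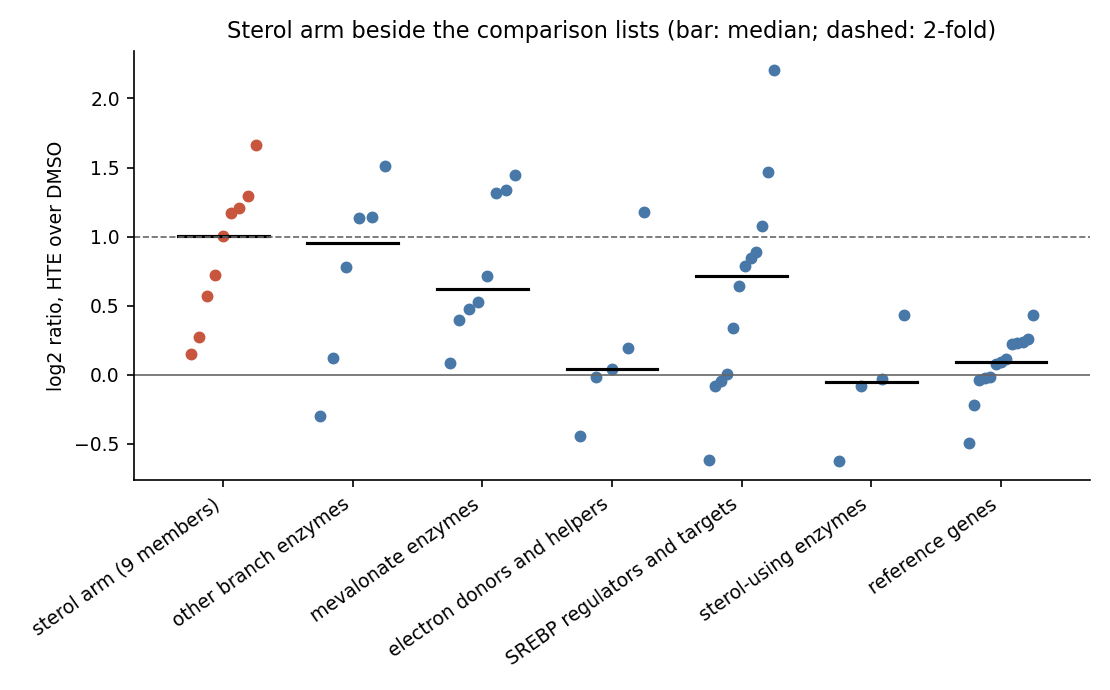
Log2 ratio of HTE over DMSO of each gene in the sterol arm (red) and in 6 comparison lists (blue), with the list median as a black bar and 2-fold as a dashed line. The medians run from 1.00 for the sterol arm and 0.96 for the other enzymes of the branch to −0.055 for the sterol-using enzymes.

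The labelled cell type was set against marker genes. All 10 hepatocyte markers were well above background on both arrays, with ratios from −0.36 (FGB) to 0.21 (SERPINA1). Markers of other cell types were partly present, 2 of 4 for fibroblasts, 3 of 4 for leukocytes, 2 of 3 for endothelium and 2 of 2 for intestinal epithelium on both arrays, while COL1A2, CD3E and CDH5 were not well above background on either. PECAM1, an endothelial marker, went from 804 to 203 (−1.82), and VWF, another, from 182 to 104 (−0.63). The part of these genes in the members' ratios was not tested. In RNA of whole cultures, fewer cells with a transcript and less of it per cell cannot be told apart.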

How the data were processed

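Total RNA of HepG2 cells was labelled with Cy3 and hybridised to Agilent 1-colour arrays, 1 for DMSO and 1 for HTE, on the same slide with the same scan time. The authors deposited the Agilent Feature Extraction output of each array (version 11.5.1.1 in the file header, whereas the submitters' processing notes name 10.7). The values used are the deposited intensity of each spot, the processed signal, which was already background-subtracted and was not scaled between arrays. Precision is limited by how few arrays there are.

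Of 62976 spots per array, 58717 were not controls and belonged to 50599 probes. Of these spots 35591 (60.6%) on the DMSO array and 33249 (56.6%) on the HTE array were well above background, none was saturated, and 440 and 459 outlier spots were left out. Log2 was taken, the 75th percentile of each array was subtracted, and replicate spots were averaged. Probes needed a share of 0.5 or more of spots well above background on either array. Where the other array failed this, the ratio is a bound, taken against the dim probe's own signal or the lowest detected signal there, whichever was higher, and was set to no change where the bound fell short of 1-fold (1272 of 2752 genes with a bound). RefSeq accessions without versions were matched to the GRCh38.p14 gene table, which named 28174 of the 50599 probes. The other probes were kept under their transcript name on the array, and each such name was counted as a gene. A gene is represented by its brightest probe. The 2-fold cutoff is that of the study's methods, which name no scaling. All members and the highest and lowest gene of each list are named, with the other enzymes of the branch, of which 1 is counted but not reported here, and the list of markers is described by its counts. Members and lists were chosen with earlier results of these data known.

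Alternatives were quantile, median, no and spike-in scaling, a percentile over bright probes, normexp background correction (limma 3.58.1 in R 4.3.3, offset 50, on the median signal), neighbouring spots subtracted (5 rows and columns), other filters and bounds, other ways of joining probes, and cutoffs of 1.5-fold and 3-fold. The steps were also tested on simulated data made by shifting genes of a copied DMSO array, which checks the arithmetic and says nothing of the error between separate arrays. Other steps ran in Python 3.11.15 (matplotlib 3.10.9, numpy 2.4.6, pandas 2.3.3).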

Additional observations from a re-analysis of the deposited data

How the results depend on the processing

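No paired analysis was possible because each condition had a single array. The array error does not cover the spread between cultures, and no value here has a replicate array. The paper reports independent quantitative PCR experiments for some of these genes, LSS, CYP51A1 and HMGCS1 among them. It describes the results for LSS and HMGCS1 as matching its arrays well. Of 168 values of member genes and probes under the alternatives, 81 were identical because the filters and the ways of joining probes did not touch them, and these say nothing about stability. Of the other 87, 35 moved by less than the spread of replicate spots, 43 moved by more and 9 changed sign, and the causes were not tested.

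With median scaling the median log2 ratio of the members was 0.92, and the medians of the other branch enzymes, mevalonate enzymes, electron donors and helpers, SREBP regulators and targets, sterol-using enzymes and reference genes were 0.88, 0.54, −0.0365, 0.63, −0.14 and 0.0091. Without scaling 3 members and 883 of all genes were at least 2-fold higher, the members' median was 0.83, 1209 genes were at least 2-fold lower, EBP was at −0.022 and the 6 list medians in the same order were 0.79, 0.45, −0.13, 0.54, −0.23 and −0.082. With spike-in scaling 0 members were at least 2-fold higher, 2 were higher at all and their median was −0.22. The log2 ratios were −0.95 for SQLE, −0.016 for LSS, −0.50 for CYP51A1, −0.65 for NSDHL, −0.0515 for HSD17B7 (−0.13 at probe A_23_P11859), −1.07 for EBP and −0.22 for DHCR7. The list medians were −0.26, −0.60, −1.18, −0.51, −1.28 and −1.13, and of all genes 142 were at least 2-fold higher, 16187 at least 2-fold lower and 789 higher at all. Quantile normalization put the reference genes at −0.0079. Neighbouring spots subtracted gave medians of 1.06 for the members and 0.15 for the reference genes.

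Normexp correction gave a median of 0.90 for the other branch enzymes and 825 genes higher and 468 lower by 2-fold. Without a filter on dim probes 2390 genes were higher and 1868 lower by 2-fold, 25406 were higher at all and the sterol-using enzymes, with more genes counted, had a median of 0.43. The own value of a dim probe gave 1320 genes lower by 2-fold. Probes with an NM_ accession alone gave 700 higher (4.82%) and 397 lower of 14536 genes. A 1.5-fold cutoff gave 2953 higher and 2505 lower, and a 3-fold cutoff 422 and 129, with 1 member, MSMO1. Among genes as bright as the dimmest member, a background chosen after seeing the data, 360 were higher and 452 lower by 2-fold and 6928 were higher at all.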
